A study of Mus musculus with 26 samples.

Results

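The clustered protocadherins are 58 mouse genes that lie head to tail in 3 neighbouring clusters on chromosome 18, here all 58 of the 55487 genes in each count table that carry a Pcdha, Pcdhb or Pcdhg name. They were taken by symbol and grouped by cluster and isoform class as 12 alpha, 22 beta, 12 gamma A, 7 gamma B and 5 C-type genes (Pcdhac1, Pcdhac2, Pcdhgc3, Pcdhgc4 and Pcdhgc5). The tissue was frontal cortex of adolescent mice that carried an Adnp frameshift variant on 1 allele (labelled mutant or HET) or of their wild-type littermates (WT). Adnp encodes a zinc-finger homeodomain protein of chromatin complexes. RNA sequencing covered 7 HET and 7 WT mice, with 1 library for each mouse. Open chromatin was read from 1 list of ATAC-seq peaks for each genotype. Samples labelled PAT or Control and the Hi-C data were not used here. The sources used here do not give the strain or the sex of the mice.

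Clustered protocadherins are cadherin-like proteins of the neuronal surface. Each neuron uses its own small set of isoforms, and because matching isoforms bind each other across membranes, branches of the same cell recognise and avoid each other. In the alpha and gamma clusters a long variable exon, which has its own promoter and encodes the extracellular part, is spliced to constant exons that all isoforms of the cluster share; beta genes are single exons with no constant part. The alpha, beta, gamma A and gamma B promoters are picked at random in single neurons, through DNA methylation and through loops that CTCF and cohesin build to distant enhancers. C-type isoforms are regulated differently and are found in most or in defined types of neuron. Pcdhgc4 is the isoform on which survival of many neurons depends, Pcdhgc5 appears late in the development of the forebrain, and Pcdhac2 is the main alpha isoform of serotonergic neurons.

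Library totals ran from 32814841 to 48291175 counts, and the 58 genes together took 0.0443% to 0.0614% of a library. Adnp itself had a level of 6.90 ± 1.30 CPM (counts scaled to library size) in the HET libraries and 6.55 ± 0.875 CPM in the WT libraries (SD over 7 mice; log2 fold change 0.07, edgeR adjusted p 0.772), which does not check the labels, since a frameshift need not lower the mRNA. The cortical marker Slc17a7 was present in both groups, at 734 ± 459 CPM (HET) and 1336 ± 482 CPM (WT). Markers of cell types and brain regions varied between the libraries. Of 12 excitatory neuron markers, 11 were lower in HET, 7 at an unadjusted p under 0.05 and 0 after adjustment; their summed level ran from 1479 to 6822 CPM in HET and from 3039 to 8838 CPM in WT, lowest in HET 4 and next in HET 1. All 10 thalamic markers had positive log2 fold changes, 4 of them at an unadjusted p under 0.05, with sums of 208 to 1814 CPM in HET (highest in HET 4) and 152 to 670 CPM in WT. Sums of 5 serotonergic markers ran from 13.0 to 247 CPM in HET (highest in HET 1) and from 10.4 to 50.6 CPM in WT. No marker of these 3 lists passed the test in edgeR; DESeq2 called Cux2 lower and Tcf7l2 higher, and limma-voom called Camk2a, Cux2 and Nrgn lower. In the other 9 marker lists (inhibitory, striatal, astrocyte, oligodendrocyte, its precursor, microglia, vessel, choroid plexus and blood) edgeR also called 0. In them DESeq2 called Npy, C1qa and Hbb-bs lower, and limma-voom called Sst and Npy lower and Fgfr3, Otx2 and Lhfpl3 higher. All 10 striatal markers were above 0, and all 10 microglial and all 5 blood markers below it. In edgeR 0 striatal, 4 microglial and 5 blood markers had an unadjusted p under 0.05. The part of these shifts in the protocadherin results was not tested, beyond the fits with marker means given beside the results. The excitatory mean was itself tied to genotype, since 11 of its 12 genes were lower in HET and Slc17a6 was higher (log2 fold change 1.51). Fits with it can therefore also take away part of a genotype difference. In bulk tissue, fewer cells of a type and less RNA per cell cannot be told apart.

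What the count tables hold for a member depends on its class. Reads that overlapped exons of several genes were left out when the authors counted, so reads from the shared constant exons are missing. Counts for most alpha and gamma genes come almost wholly from their variable exons. Members therefore differ in the exon length that no other annotated gene overlaps, called free length here. It was 46.5% of the exon bases of Pcdha1, 54.9% of those of Pcdhga2 and 100% of those of Pcdhb14. Pcdhgb4 had 1039 of its 3588 free bases outside its first exon block. The first exon block of Pcdhgc5 (5567 bases, 4606 of them free) also overlaps exons of the other gamma genes. Reads of other gamma transcripts in its free bases cannot be told apart from its own. After the filter on low counts 54 members were tested: 10 alpha, 21 beta, 11 gamma A, all 7 gamma B and all 5 C-type. Pcdha4 kept 404 free bases, since Gm38225 and Gm42416 cover most of its variable exon, and Pcdha11 was covered by Gm10545 and Gm18150 except for 23.1% of its first exon block. Pcdhga10 had 0 free bases, because its variable exon lies inside the antisense gene Gm26672, and 0 counts in every library. The low counts of Pcdha4 and Pcdhga10 therefore say little about their expression. Pcdha11 kept 1268 free bases in all, 768 in its first exon block and 500 outside it. The tested gene Pcdhga11 kept 1256, all in its first block. Pcdha11 averaged 0.00338 CPM in WT and 0.0355 CPM in HET. For Pcdhb1 the single exon is 100% free, and its level was still only 0.132 ± 0.104 CPM in WT and 0.160 ± 0.0498 CPM in HET. Beta genes are close paralogs, and reads that mapped to several places were left out, so counts of near-identical members are minimum values.

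Levels compared between genes are given as CPM per kilobase of free length in WT. C-type genes led, with a median of 13.0, followed by gamma A with 3.79, gamma B with 2.88, beta with 1.56 and alpha with 1.34. Pcdhgc5 had the highest level of all 58 genes, 26.7 ± 5.66 CPM per kb (SD, n = 7), over an exon block that other gamma genes overlap in part. Pcdhgc3 stood at 14.8 ± 0.988 and Pcdhac2 at 13.0 ± 2.27, which overlap within their SD. Pcdhgc4 followed at 4.98 ± 1.11. Pcdhac1 stood apart from the other C-type genes at 1.44 ± 0.268, close to the alpha median. Among the others, the highest levels of a class were those of Pcdha12 (3.64 ± 1.13), Pcdhb9 (3.99 ± 0.381), Pcdhga11 (7.72 ± 1.20) and Pcdhgb6 (5.82 ± 0.861). Pcdha8 was the lowest of the tested members at 0.192. The median coefficient of variation over WT libraries was 25.7% for alpha, 16.8% for beta, 13.2% for gamma A, 13.8% for gamma B and 18.6% for C-type genes, against 14.8% over all tested genes. Over HET libraries the medians were 17.0%, 15.6%, 18.8%, 13.8% and 22.1%, so alpha genes were the most variable class in WT and C-type genes in HET. The part of counting error in this spread was not tested.

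**Figure D1:**
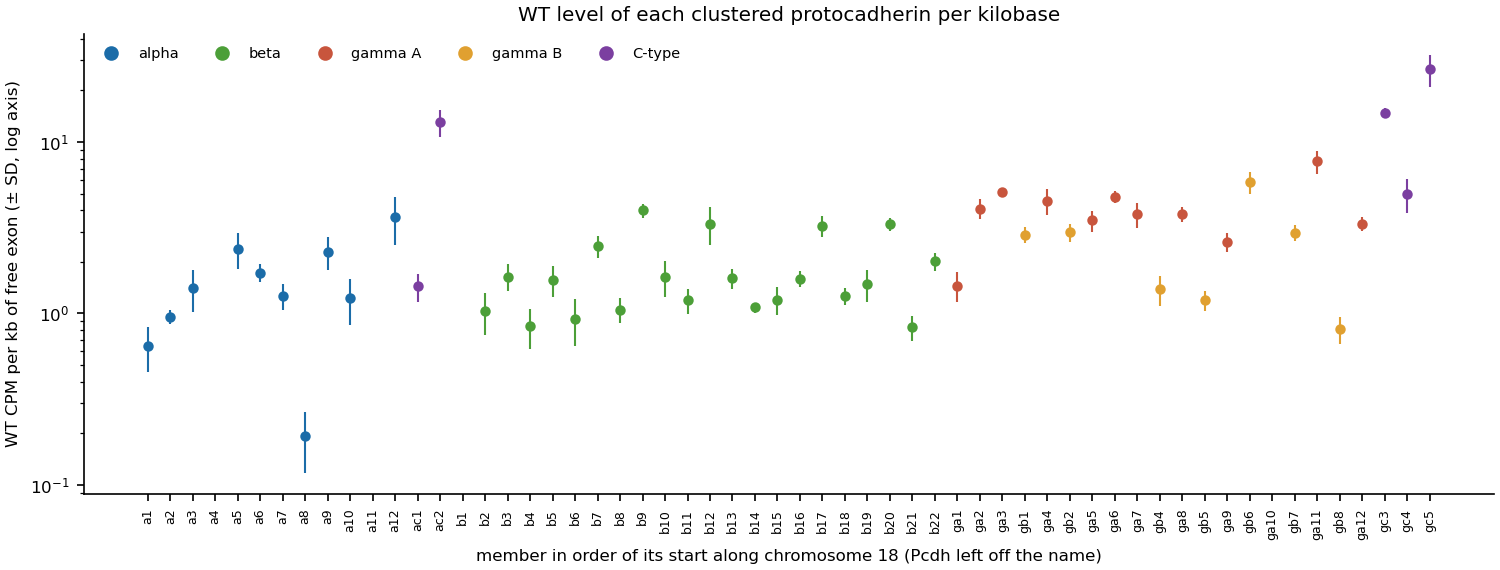
Mean WT level of each member in CPM per kb of free exon on a log axis (points, bars show SD over 7 mice), in the order of the genes along chromosome 18 and coloured by class; Pcdha4, Pcdha11, Pcdhb1 and Pcdhga10, which were not tested, have no point. Pcdhac2, Pcdhgc3 and Pcdhgc5 lie above 10 and Pcdha8 lies lowest at 0.192.

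The comparison of HET with WT asks whether the Adnp variant changed which isoforms the cortex expresses. Pcdhb14, Pcdhga2 and Pcdhgb6 rose, no member fell, and 51 tested members did not pass (edgeR quasi-likelihood test, adjusted p under 0.05 over 18050 genes). Of all tested genes, 0.587% rose and 0.382% fell by the same rule. The log2 fold changes of the 54 members had a median of 0.05, beside 0.02 over all tested genes, with 30 above and 24 below 0. Over all tested genes 9619 were above and 8431 below 0. At an unadjusted p under 0.05 there were 11 higher and 6 lower members; over all tested genes these shares were 11.8% and 10.4%. DESeq2 called 8 members higher and 3 lower, where it called 4.54% and 4.36% of the 17000 genes it gave an adjusted p, and limma-voom with sample weights called 9 and 3, beside 5.16% and 5.29% of all tested genes. The number of calls moved with single libraries: it was 0 without HET 1, HET 2, HET 7, WT 1 or WT 6, 1 without HET 3, WT 3, WT 5 or WT 7, 1 higher and 1 lower without HET 5, 5 higher and 2 lower without HET 6, and 6 higher and 2 lower without WT 4. Calls over all tested genes moved in the same fits. They were 10 higher and 1 lower of 18242 without HET 1, and 12 and 1 of 18203 without HET 2. Without HET 6 they were 605 and 505 of 18233, and without WT 4 they were 791 and 881 of 18223. Without the 2 libraries lowest in excitatory markers (HET 1 and HET 4), Pcdhb14 and Pcdhga2 were called, beside 0.0704% of all tested genes called higher in that fit. With the excitatory marker mean as a covariate Pcdhga2 and Pcdhga11 were called, where 0.0665% of all tested genes were called higher, and with the excitatory, striatal and thalamic means together Pcdhb14, Pcdhga2 and Pcdhga11 were called higher and no member lower, beside 0.0942% and 0.0166% of all tested genes.

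**Figure D2:**
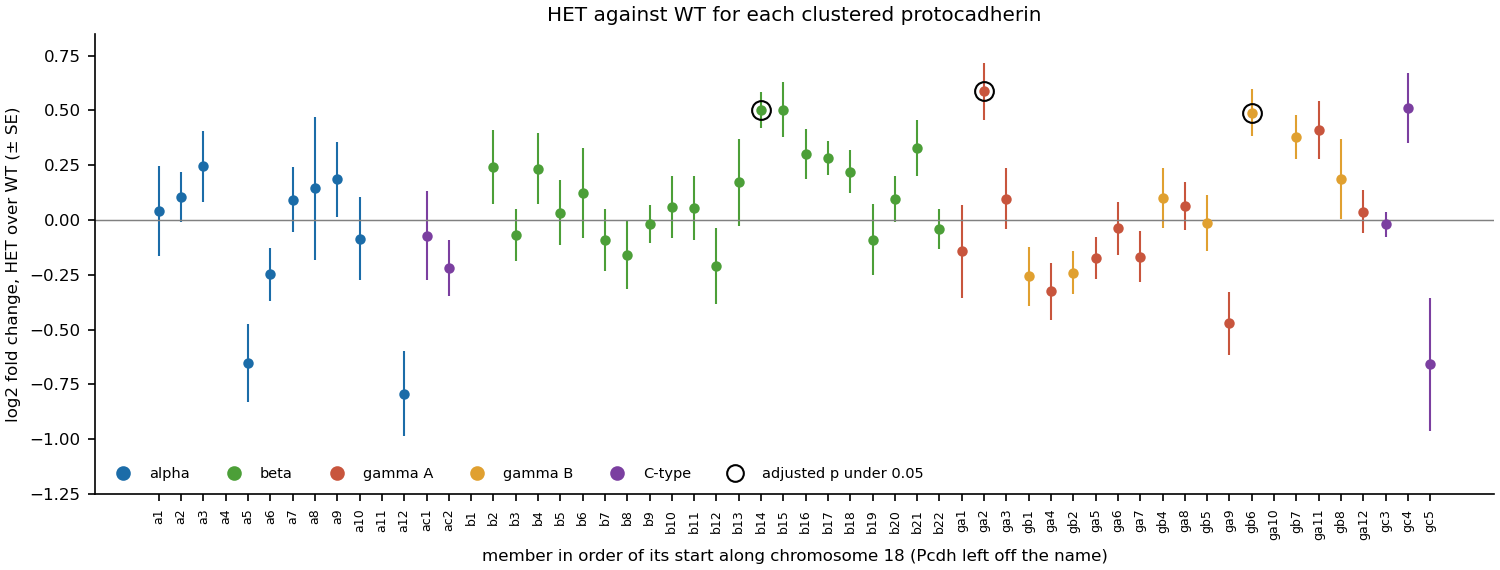
Log2 fold change of HET over WT (points, bars show SE) for the 54 tested members in order along chromosome 18, coloured by class, with rings on members at an adjusted p under 0.05. The ringed genes Pcdhb14, Pcdhga2 and Pcdhgb6 lie near 0.5 in 3 separate stretches, and Pcdha12 lies lowest at -0.79.

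Among the 22 beta genes, which take part in recognition together with the other isoforms, Pcdhb14 rose in edgeR, 20 tested members did not pass and Pcdhb1 was not tested. DESeq2 also called Pcdhb15 and Pcdhb17 higher, and limma-voom Pcdhb15, Pcdhb16, Pcdhb17 and Pcdhb18. Pcdhb14 (ENSMUSG00000044043, GRCm38 chromosome 18, 37447656 to 37456350, plus strand, a single exon) had its lowest, median and highest library at 11.0, 13.5 and 15.3 CPM in HET and at 8.67, 9.48 and 10.3 CPM in WT. Every HET library lay above every WT library, which held for no other member and for 0.432% of all tested genes; no member had every HET library below every WT library, as 0.283% of all tested genes did. The means were 13.3 ± 1.54 CPM in HET and 9.42 ± 0.630 CPM in WT, a log2 fold change of 0.50 (SE 0.08, 95% confidence interval 0.33 to 0.67, adjusted p 0.0222). The adjusted p was 0.0641 without HET 1, 0.0596 without HET 2, 0.0636 without HET 7, 0.0687 without WT 1 and 0.0632 without WT 6, with log2 fold changes from 0.46 to 0.54 over the 14 fits that leave out 1 library. With the excitatory marker mean as a covariate Pcdhb14 kept a log2 fold change of 0.55 at an adjusted p of 0.0600. The difference in Pcdhb14 was therefore near the same size in all these fits, while its adjusted p moved around the threshold.

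Pcdhb15, the next gene in the row, had the largest log2 fold change of the class at 0.50 (SE 0.12, adjusted p 0.0623). Its libraries ran from 4.14 over a median of 4.77 to 5.92 CPM in HET and from 2.88 over 3.10 to 4.67 CPM in WT. WT 2 was the sole WT library inside the HET range, and without it the adjusted p of Pcdhb15 was 0.0486. Pcdhb9, the beta gene with the highest level per kb, ran from 10.4 over 12.2 to 14.4 CPM in HET and from 10.5 over 12.2 to 14.1 CPM in WT. Its groups overlapped almost fully, with a log2 fold change of -0.02 (95% confidence interval -0.20 to 0.16). Over the 21 tested beta genes the median log2 fold change was 0.10, with 14 above and 7 below 0. Of all 18050 tested genes 9619 were above 0. At an unadjusted p under 0.05 in edgeR 6 beta genes were higher and 0 lower, beside 11.8% and 10.4% of all tested genes. With the excitatory marker mean as a covariate 18 of the 21 beta genes were above 0, with a median of 0.20, beside 0.01 over all tested genes.

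Among the 12 gamma A genes Pcdhga2 rose in edgeR, 10 did not pass and Pcdhga10 was not tested. DESeq2 and limma-voom also called Pcdhga11 higher, and DESeq2 called Pcdhga9 lower. Pcdhga2 (ENSMUSG00000103332, 37668953 to 37841870) ran from 10.4 over 15.7 to 20.2 CPM in HET and from 8.67 over 10.3 to 12.9 CPM in WT. HET 4 lay inside the WT range and the other HET libraries above it, at 13.5 CPM or more. The means were 15.8 ± 3.21 and 10.5 ± 1.39 CPM, 0.59 apart on the log2 scale (SE 0.13, 95% confidence interval 0.31 to 0.86, adjusted p 0.0476). Of the 14 fits that leave out 1 library, Pcdhga2 was called in 3 (those without HET 4, HET 6 and WT 4), with adjusted p from 0.0245 to 0.112 over all of them. The excitatory covariate gave a log2 fold change of 0.79 for Pcdhga2 (adjusted p 0.00992). Pcdhga11, the gamma A gene with the highest level per kb, ran from 9.03 over 12.8 to 15.6 CPM in HET and from 7.70 over 9.62 to 11.5 CPM in WT (log2 fold change 0.41, adjusted p 0.101). With that covariate the values of Pcdhga11 were 0.65 on the log2 scale and 0.0381 for the adjusted p. Its variable exon is 47.6% free, the rest being covered by the antisense gene Gm26672, and since strand was ignored, reads from that gene in the free bases cannot be told apart from its own. Of the 11 tested members 5 were above 0 and 6 below, with a median of -0.04 in edgeR and 3 above and 8 below with a median of -0.14 in limma-voom, and Pcdhga9 had the most negative value at -0.47 (adjusted p 0.0932).

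Among the 7 gamma B genes Pcdhgb6 rose in edgeR and 6 did not pass; DESeq2 and limma-voom also called Pcdhgb7 higher (edgeR log2 fold change 0.38, adjusted p 0.0695). Pcdhgb6 (ENSMUSG00000103088, 37742094 to 37841873), which has the highest level per kb of its class, ran from 17.3 over 21.2 to 25.4 CPM in HET and from 11.4 over 15.4 to 18.01 CPM in WT. HET 2 and HET 7 lay below the highest WT library, WT 5. The means were 21.0 ± 2.89 and 14.9 ± 2.21 CPM, 0.49 apart on the log2 scale (SE 0.11, 95% confidence interval 0.26 to 0.72, adjusted p 0.0476). The call held without HET 6 and without WT 4 and in no other of the 14 fits that leave out 1 library, with adjusted p from 0.0182 to 0.112. It was also lost with the excitatory marker mean as a covariate (log2 fold change 0.43, adjusted p 0.221) and without both HET 1 and HET 4 (0.48, adjusted p 0.145). Of the 7 genes 4 were above 0 and 3 below, with a median log2 fold change of 0.10, which was -0.03 with the excitatory covariate.

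**Figure D3:**
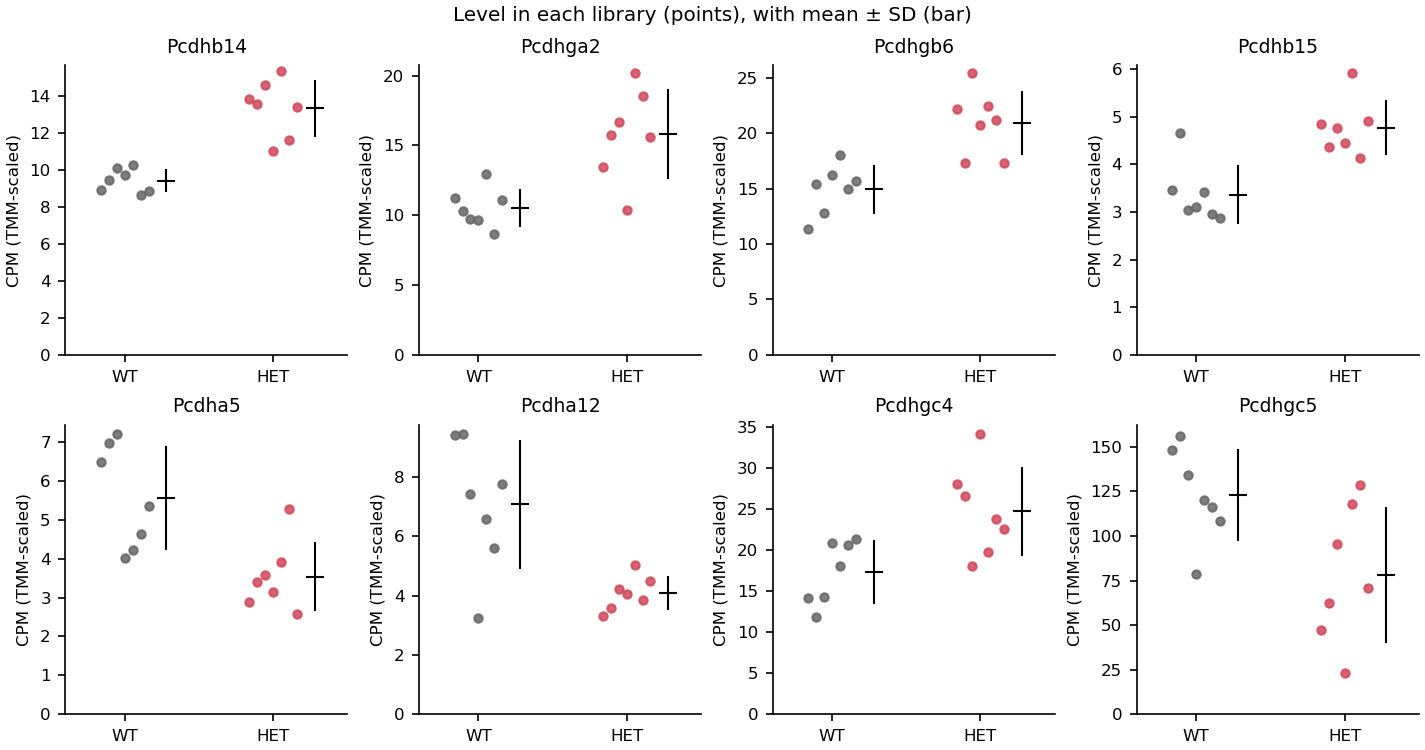
Level in CPM of 8 members in each library (points, grey for WT and red for HET), with the mean and SD of 7 libraries as a bar; each panel has its own axis from 0. The Pcdhb14 groups do not overlap, and in Pcdhgc5 the HET libraries spread from 23.0 to 129 CPM.

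Among alpha genes 0 of 10 tested members passed the test in edgeR. At an unadjusted p under 0.05, 0 were higher and 2 lower, beside 11.8% and 10.4% of all tested genes. DESeq2 and limma-voom called both of these 2 members, Pcdha5 and Pcdha12, lower. Pcdha12, with both the largest difference and the highest level per kb of the class, ran from 3.31 over 4.06 to 5.01 CPM in HET and from 3.24 over 7.43 to 9.45 CPM in WT. WT 4, at 3.24 CPM, lay below all HET libraries, and the other 6 WT libraries lay above them all, at 5.61 CPM or more. The log2 fold change of Pcdha12 was -0.79 (SE 0.19, 95% confidence interval -1.21 to -0.38) with an adjusted p of 0.0603. The adjusted p was 0.00508 without WT 4 and 0.0457 without HET 6, and up to 0.129 without any other library. Pcdha12 stood at -0.52 (adjusted p 0.358) with the excitatory marker mean as a covariate. The variable exon of Pcdha12 is 78.5% free, the rest being covered by the antisense gene Gm10545. For Pcdha5 it was -0.65 (adjusted p 0.0763). The other 8 alpha genes lay between -0.25 and 0.25, and the median of the class was 0.07, with 6 of 10 above 0.

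C-type genes had the highest levels as a class, and 0 of 5 passed the test in edgeR. Of the 5, 4 were below and 1 above 0. At an unadjusted p under 0.05, 1 was higher and 1 lower, beside 11.8% and 10.4% of all tested genes. DESeq2 called Pcdhgc4 higher and limma-voom called Pcdhgc5 lower. Pcdhgc5 ran from 23.0 over 70.8 to 129 CPM in HET and from 78.6 over 120 to 156 CPM in WT. HET 4 was lowest and HET 6 highest of the HET libraries, and WT 4 was lowest of the WT libraries; the same 3 libraries were lowest, highest and lowest in the sum of the excitatory markers. The means of Pcdhgc5 were 77.9 ± 38.2 CPM in HET and 123 ± 26.1 CPM in WT, a log2 fold change of -0.66 (SE 0.30, 95% confidence interval -1.31 to -0.01, adjusted p 0.217). With the excitatory marker mean as a covariate it was -0.08 (adjusted p 0.883), and without HET 1 and HET 4 it was -0.37 (adjusted p 0.402). Limma-voom with sample weights gave -0.79 for Pcdhgc5 with an adjusted p of 0.0499.

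Pcdhgc4 had the opposite sign and ran from 18.1 over 23.7 to 34.2 CPM in HET and from 11.8 over 18.1 to 21.4 CPM in WT. The groups overlapped, with HET 4 highest of all 14 libraries. The means were 24.7 ± 5.45 and 17.3 ± 3.87 CPM, a log2 fold change of 0.51 (SE 0.16, 95% confidence interval 0.17 to 0.85, adjusted p 0.0961). The adjusted p of Pcdhgc4 was 0.0486 without WT 4 and at least 0.0753 without any other single library. It was 0.25 (adjusted p 0.483) with the excitatory covariate. The HET library with the least Pcdhgc5 thus had the most Pcdhgc4.

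Pcdhac2 ran from 28.7 over 31.6 to 46.4 CPM in HET and from 26.2 over 40.4 to 48.1 CPM in WT (log2 fold change -0.22, adjusted p 0.327), with HET 6 high and WT 4 low in their groups. With the excitatory covariate it was 0.02. Pcdhac2 was not highest in HET 1, the library with the most serotonergic marker RNA, where it stood at 29.3 CPM. Pcdhgc3, which also reaches glia and other cells, was the steadiest of the 5, from 24.3 over 26.8 to 28.6 CPM in HET and from 24.7 over 27.3 to 29.5 CPM in WT (log2 fold change -0.02, 95% confidence interval -0.14 to 0.10). Pcdhac1 ran from 2.03 over 3.46 to 5.03 CPM in HET and from 2.21 over 3.84 to 4.23 CPM in WT (log2 fold change -0.07, 95% confidence interval -0.51 to 0.36).

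Summed over a class, the levels of the groups overlapped in every class. HET and WT had alpha sums of 31.5 ± 2.78 and 35.3 ± 5.80 CPM, and the beta sum 160 ± 15.8 and 146 ± 11.1 CPM. The gamma A sum was 110 ± 14.4 and 107 ± 4.97 CPM, and the gamma B sum 54.3 ± 5.62 and 48.6 ± 1.91 CPM. The C-type sum differed most (HET 167 ± 39.4 CPM, WT 210 ± 29.7 CPM), a ratio of 0.792, with HET 4 lowest at 116 CPM. Pcdhgc5 alone differed by about as much, with means of 77.9 CPM (HET) and 123 CPM (WT). Of the other C-type genes, Pcdhgc4 was higher in HET (24.7 CPM, WT 17.3 CPM) and Pcdhac2 lower (33.9 CPM, WT 39.4 CPM). Pcdhgc3 and Pcdhac1 were nearly equal, so the lower sum was not a shift shared by the class. All 58 genes together came to 522 ± 69.5 and 547 ± 44.1 CPM, so the 2 totals differed by less than either SD. C-type genes, Pcdhgc5 included, made up 31.6% ± 3.49 of that total in HET and 38.3% ± 2.95 in WT. Of the gamma cluster's sum, Pcdhgc5 held 25.3% ± 9.20 in HET (10.1% in HET 4 to 36.7% in HET 6) and 37.8% ± 5.56 in WT (28.6% in WT 4 to 44.2% in WT 1). Pcdhgc4 held 8.83% ± 3.36 and 5.46% ± 1.56, highest in HET 4 at 15.0%. The Pcdhac2 share of the alpha cluster sum was nearly the same, 49.0% ± 1.80 in HET and 50.2% ± 1.78 in WT. These sums and shares are descriptions with no test, they give long free exons more weight, and the Pcdhgc5 share was lowest in HET 4 and WT 4, which also had the lowest excitatory marker sums of their groups; the part of those markers was not tested.

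**Figure D4:**
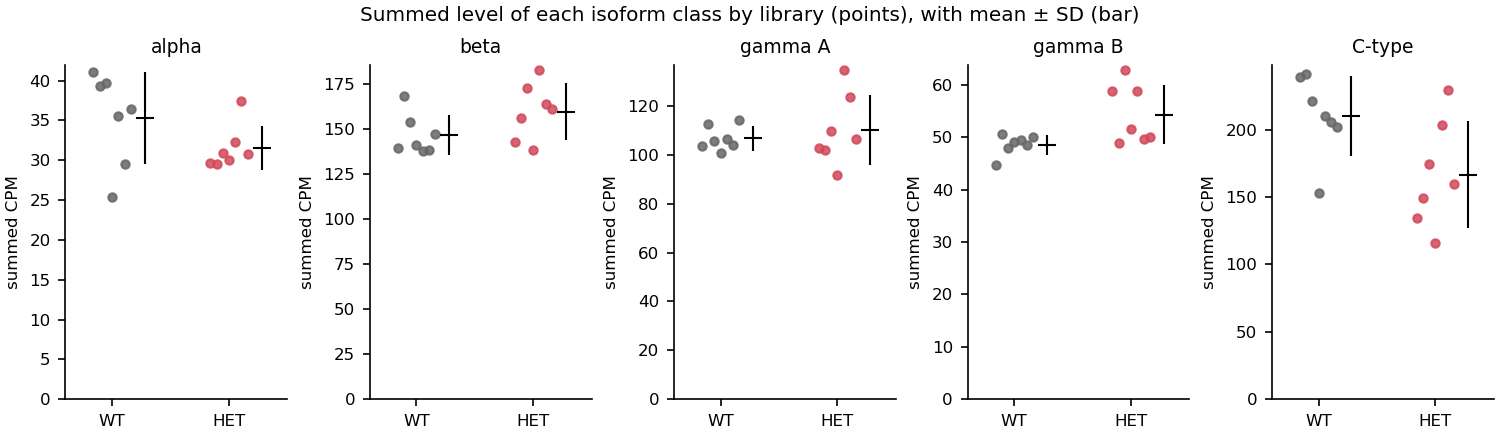
Sum of CPM over the members of each class in every library (points, grey for WT and red for HET), with mean and SD of 7 libraries as a bar; each panel has its own axis from 0. The C-type sum runs from 116 to 229 CPM in HET and from 153 to 241 CPM in WT, and the groups overlap in all 5 panels.

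Some stretches of neighbouring members shared the sign of their difference. Whether they were longer than a random order of the 30 members above and 24 below 0 would give was not tested. From Pcdhb13 to Pcdhb18, 6 genes in a row, all log2 fold changes were positive (0.17 to 0.50), and 5 of the 6 had an unadjusted p under 0.05, while only Pcdhb14 passed the test. From Pcdhgb1 over Pcdhga4, Pcdhgb2, Pcdhga5 and Pcdhga6 to Pcdhga7, 6 genes were all negative (-0.33 to -0.04), with 2 at an unadjusted p under 0.05. Towards the end of the gamma variable exons, from Pcdhgb6 to Pcdhga12, the 5 tested genes were again positive (0.04 to 0.49), with 3 at an unadjusted p under 0.05. Over all tested genes 11.8% were higher and 10.4% lower at an unadjusted p under 0.05 in edgeR. These stretches were picked after their values were seen, and the libraries are the same for every gene, so no test is given. In between lay genes of the opposite sign, such as Pcdhb19 at -0.09 and the neighbours Pcdhgb5 at -0.01 and Pcdhga9 at -0.47.

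The peak lists, 1 for each genotype with names that point to merged libraries, held 30862 HET and 19272 WT peaks, so the lists differ in size and there is no replicate. Between the start of Pcdha1 and the last exon of the gamma cluster, a span of 912 kb (chromosome 18, 36930184 to 37841873, mm10), 9 HET and 8 WT peaks were listed, and all 8 WT peaks overlapped a HET peak. A peak within 1000 bases of the gene's start was listed for 5 members in HET (8.62%) and 4 in WT (6.90%), against 63.7% and 57.3% of all tested genes. The 4 found in both lists were C-type genes: Pcdhac1 (HET peak 37089720 to 37090204), Pcdhac2 (37143503 to 37144673), Pcdhgc3 (37806132 to 37806762) and Pcdhgc5 (37819188 to 37819745). Pcdhgc4 had none, and neither had any beta or gamma A gene, Pcdhb14 and Pcdhga2 included. The fifth, 96 bases before the start of Pcdhgb8 (37761373 to 37761705), was listed in HET and not in WT. That peak is 333 bases wide and is not among the 19272 widest HET peaks; Pcdhgb8 RNA was at 2.30 ± 0.571 CPM in HET libraries against 2.02 ± 0.374 CPM in WT libraries (log2 fold change 0.19, adjusted p 0.576).

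The remaining peaks in the span lay outside the variable exons. One was in the alpha constant region past Pcdhac2 (HET 37178307 to 37178753). It covered the start of Gm10544, a gene on the minus strand (37159854 to 37178522). A neighbouring pair lay between the alpha and beta clusters (37217249 to 37217688 and 37217741 to 37218423). Another was at the start of Taf7, a general transcription factor gene between the beta and gamma clusters (37644005 to 37644509). Just past the last gamma exon both lists held a wide peak (HET 37841905 to 37843230). Enhancers of the alpha cluster are known in its constant region and downstream of it, and those of the beta and gamma clusters downstream of the gamma genes; the peaks were not matched to them. A promoter used in few cells of a tissue can stay below the reach of a bulk peak list, so a missing peak does not show a closed promoter.

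**Figure D5:**
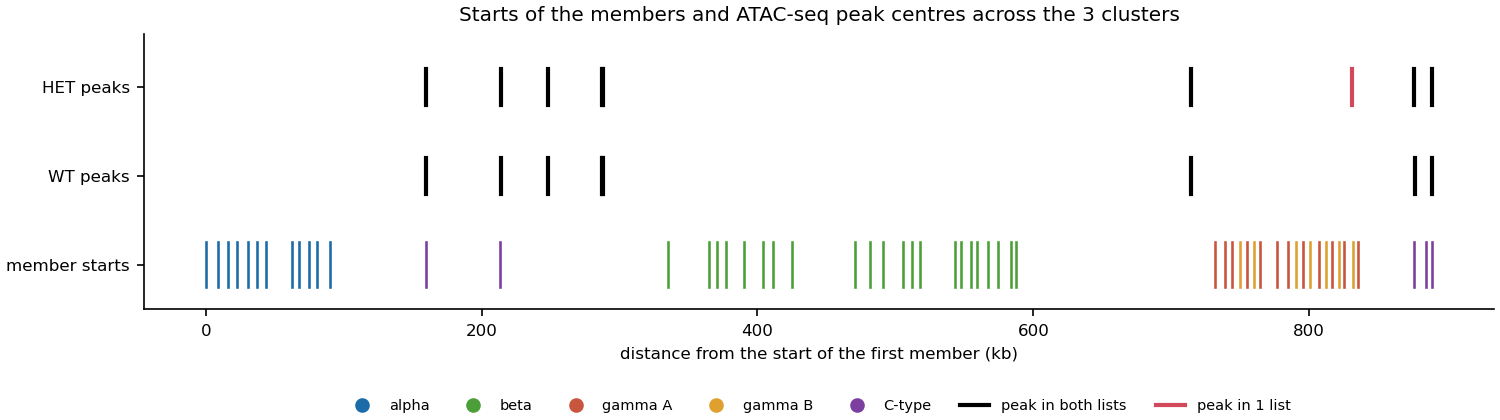
Starts of the 58 members (lower row, coloured by class) and centres of the ATAC-seq peaks of the HET and WT lists (upper rows), as distance in kb from the start of the first member. Peaks in both lists are black; the peak before Pcdhgb8 is red and is listed in HET alone.

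Genes that act on protocadherin promoters or with the proteins were looked at as 3 lists. Of 12 tested genes for CTCF, cohesin and loop regulation, Stag1, a cohesin subunit, rose and 11 did not pass. In edgeR 0.587% of all tested genes rose. Stag1 ran from 33.5 over 36.6 to 41.5 CPM in HET and from 28.5 over 30.5 to 32.8 CPM in WT. Every HET library lay above every WT library, as in 0.432% of all tested genes. The log2 fold change of Stag1 was 0.27 (SE 0.05, edgeR adjusted p 0.0408). The difference was small and its call depended on the libraries: Stag1 was called in 3 of the 14 fits that leave out 1 library (without HET 5, HET 6 or WT 4), with a highest adjusted p of 0.0940, and the call was lost with the excitatory covariate (adjusted p 0.164). Of 21 membrane partners and effectors 0 passed in edgeR and 4 had an unadjusted p under 0.05; DESeq2 and limma-voom called Ptk2 (focal adhesion kinase) and Brk1 (a subunit of the actin-regulating WAVE complex) lower (log2 fold changes -0.50 and -0.32). Of 13 non-clustered protocadherins, relatives that lie outside the 3 clusters (Pcdh1 and Pcdh12 within 500 kb after the gamma cluster), 0 passed in edgeR and 4 had an unadjusted p under 0.05, and DESeq2 and limma-voom called Pcdh11x and Pcdh18 higher. Pcdh18 was closest in edgeR (log2 fold change 0.67, adjusted p 0.0676). Beside these counts, 4007 of all 18050 tested genes had an unadjusted p under 0.05 in edgeR. DESeq2 called 4.54% of genes higher and 4.36% lower, and limma-voom 5.16% and 5.29%.

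Genes around the clusters were read in the same fit. Of 5 tested genes between the first and last member that are not protocadherins, Taf7 among them, edgeR called 0, with 2 at an unadjusted p under 0.05, DESeq2 called 0 and limma-voom 1. Within 500 kb after the span all 3 tools called 0 of 12, with 1 at an unadjusted p under 0.05 in edgeR. Within 500 kb before it edgeR called 1 of 17, with 4 at an unadjusted p under 0.05. Over all tested genes 4007 of 18050 had an unadjusted p under 0.05 in edgeR. Before the span DESeq2 and limma-voom called the same gene as edgeR and also Zmat2, which was lower (edgeR log2 fold change -0.25, adjusted p 0.107). The gene called by all 3 tools was E230025N22Rik, a gene of unnamed function 234259 bases before Pcdha1 (36684923 to 36695925, minus strand). E230025N22Rik ran from 2.14 over 4.63 to 7.62 CPM in HET and from 0 over 0.160 to 0.277 CPM in WT, a log2 fold change of 4.96 (SE 0.42, adjusted p 4.7e-05). It was called in all 14 fits that leave out 1 library (highest adjusted p 0.000437), which no protocadherin was.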

How the data were processed

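Members, gene lists and tests were chosen with earlier results of these data known. RNA was total RNA selected for poly-A and sequenced as read pairs, per the labels' protocols. The authors' deposited values are raw counts per gene: featureCounts 2.0.1 counted reads over exons by gene ID (Ensembl GRCm38, release 102), with strand ignored and each mate counted by itself, per the file headers. STAR, Trimmomatic and Subread were named without versions, per the submitters' processing notes. Of 55487 IDs, 55141 matched a symbol; the ID table gave Pcdha11 to 2 IDs, and 1 was taken as Pcdha10 by its RefSeq start. The deposited ATAC-seq lists give positions on mm10 and no height or q-value; MACS3 was named in the submitters' processing notes, and the sources used here do not state which libraries were merged, the settings or the depth.

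Counts were TMM-scaled, filtered with filterByExpr by genotype (18050 genes) and tested for genotype in edgeR 4.0.16 (robust quasi-likelihood, two-sided, Benjamini-Hochberg over all genes, threshold 0.05). On simulated counts 86.5% of 200 genes with a 2-fold change were recovered, with 3.35% false calls. The simulation held no smaller changes and no differences in tissue make-up between libraries. Its rates therefore do not describe changes such as those of Pcdhb14 (1.41-fold), Pcdhga2 (1.50-fold) and Pcdhgb6 (1.40-fold). CPM values are TMM-scaled, errors are SD over 7 libraries, and folds are those of the edgeR model. The marker means used as covariates were means of log2 CPM with a prior count of 2. The smallest chi-square between libraries was 9.38 per degree of freedom over 91 pairs, so none was a second copy. Values per library were given for called members, the largest difference and highest level per kb of each class, and the C-type genes. For 1 further list, neither the counts nor 1 of its genes are reported here. Alternatives were DESeq2 1.42.0, its size factors, 2 other filters, limma-voom (limma 3.58.1), a replicate block, marker means as 1 or 3 covariates, leaving out each library and a threshold of 0.1; removing the 2 libraries lowest in excitatory markers was chosen after seeing the data.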

Additional observations from a re-analysis of the deposited data

Results flagged for a closer look

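Values by library were checked in 34 sets of 7 libraries for a lowest or highest library far from the rest, and chance flags about 1 in 20 such sets. Pcdhac1 in WT 4 stood at 2.21 CPM, below the other WT libraries at 3.65 to 4.23 CPM. Pcdhb15 stood out in both groups, at 5.92 CPM in HET 5, above the other HET libraries at 4.14 to 4.90 CPM, and at 4.67 CPM in WT 2, above the other WT libraries at 2.88 to 3.46 CPM. The alpha class sum in HET 6 was 37.5 CPM, above the other HET libraries at 29.5 to 32.2 CPM. HET 6 also had the highest excitatory marker sum of the HET libraries (6822 CPM) and WT 4 the lowest of the WT libraries (3039 CPM); the part of these markers was not tested.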

How the results depend on the processing

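Labels give both genotypes the numbers 1 to 7. Same-numbered libraries did not deviate together (correlations from -0.28 to 0.33, and 1 of 7 pairs matched its own number best), so the numbers were not taken as pairs. With the replicate block 0 members were called higher, 0 lower and 10 genes in all, and Pcdhb14 (log2 fold change 0.49), Pcdhga2 (0.57) and Pcdhgb6 (0.49) lost their calls with little change in size.

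The 3 members called higher, 0 lower and 175 genes in all became 8, 3 and 1513 with DESeq2, 9, 3 and 1886 with limma-voom, and 7, 3 and 1195 at an adjusted p under 0.1. All genes called were 106 with no filter, 12 with the excitatory covariate, 20 with 3 marker covariates and 13 without HET 1 and HET 4; the members called higher were then 3, 2, 3 and 2, and the cause was not tested. With 1 library left out, members called higher ranged from 0 to 6, members called lower from 0 to 2 and all genes called from 11 (without HET 1 or HET 7) to 1672 (without WT 4), with 1110 without HET 6. DESeq2 size factors and a filter of 1 CPM in 7 libraries kept the same 3 called members. The call of Stag1 was lost with no filter (adjusted p 0.0770) and with the replicate block (0.0855).

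Signs turned for members near 0. Pcdhac1 was 0.27 with the excitatory covariate and 0.27 with 3 covariates, 0.035 without HET 1 and HET 4, and from -0.18 to 0.028 with 1 library left out (above 0 without HET 3 or HET 4). Pcdhac2 was 0.023 and 0.027 with 1 and 3 covariates. Pcdhb9 was 0.034 without HET 1 and HET 4, and from -0.066 to 0.021 with 1 library left out (above 0 without HET 1, HET 2 or WT 4). Pcdhgc3 ran from -0.039 to 0.0031 with 1 library left out (above 0 without HET 5 or WT 3). The gamma B median was -0.03 with 1 and with 3 covariates, and the C-type genes then split into 3 above and 2 below 0.

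Per kb of whole exon length, shared exons included, the class medians were 0.589 for alpha, 1.904 for gamma A, 1.15 for gamma B and 4.90 for C-type, and beta was then above alpha and gamma B. Class sums kept their sign under both other scalings, with any library left out and with members at least 50% free, except that the gamma A log2 ratio went from 0.05 to -0.0092 without HET 5. No alpha gene is at least 50% free, so that setting gave no alpha value. Counts of peaks were unchanged with a 500-base window; with an overlap of at least 50% of both peaks 7 were shared, and of the widest HET peaks 8 lay in the span.

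Members with few counts and little free length limit what can be seen: the WT level of Pcdha8 was 0.476 CPM, and its SE on the log2 scale was 0.33, against 0.06 for Pcdhgc3. The depth behind the peak lists is unknown.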
